A study of Homo sapiens with 12 samples.

Results

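Palbociclib was set against its solvent, dimethyl sulfoxide (DMSO), in the 6 RNA sequencing libraries labelled DU145 among the 12 of the series. The libraries were taken by the column labels of the count table for that line, 3 with palbociclib and 3 with DMSO. Of the 57167 genes listed, 15361 passed a filter on low counts, and they are the genes described here. DU145 is an established line from a human prostate cancer that is known to lack functional RB1, so the comparison bears on the part of the response to palbociclib that takes place without that protein. The culture medium was RPMI-1640 plus fetal bovine serum in every group. No source used here gives the dose or the duration of the treatment, and the 6 libraries labelled C4-2, a prostate line with intact RB1, enter only where the lines are compared. Whether replicate libraries stand for separate cultures is not in the labels, so the p-values reflect spread among these libraries and this spread may be technical.

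Palbociclib occupies the ATP site of the cyclin-dependent kinases CDK4 and CDK6, which act with D-type cyclins in G1. Their best known substrate is RB1, which holds E2F transcription factors at the promoters of DNA replication genes until it is phosphorylated, and the related pocket proteins RBL1 and RBL2 do so in the DREAM complex. CDK4 and CDK6 also phosphorylate other proteins, among them the lysosomal regulator TFEB, and palbociclib is itself a weak base of the kind that accumulates in lysosomes.

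Totals ran from 16108999 to 16674393 counts per library, so 0 counts of a gene in a library allows up to 0.18 to 0.186 CPM (counts per 1000000 counts of the library). Reads of mitochondrially encoded genes made up 3.07% to 3.37% of counts with palbociclib and 4.4% to 4.92% with DMSO. In both groups replicate 3 stood apart from replicates 1 and 2. Calls that changed without it are named for the genes that were followed over the alternative fits. No source used here says whether reads were counted by strand or how reads with several matches were counted, so values of overlapping or antisense genes and of genes with close copies (BOLA2B, ACTG1, FTH1, HLA-E, MICA, ribosomal proteins and mitochondrial genes) are uncertain to that degree. The housekeeping genes EEF1G, an elongation factor, and TOMM6, a mitochondrial import subunit, had 0 counts in all 6 libraries, so a count near 0 may not mean that a gene was silent. The defining markers followed the label in part. KRT8, an epithelial keratin, was at 1308 ± 44.2 CPM with palbociclib against 1739 ± 81.7 CPM with DMSO (SD, n = 3), and CDKN2A, which DU145 is known to express, at 416 ± 52.8 CPM with palbociclib against 387 ± 27.8 CPM with DMSO. KLK3, KLK2, FOLH1 and TMPRSS2, luminal prostate genes, had 0 counts in all 6 libraries. Against the epithelial part of the label, KRT19 had 0 to 1 counts, EPCAM 4 to 19 and CDH1 13 to 35. The summed CPM of 7 leukocyte markers ran from 7.46 to 8.15 in the palbociclib and from 2.68 to 4.09 in the DMSO libraries, with PTPRC and CD3E at 0 in every library and CD14 at 52 to 68 against 5 to 6 counts. That of 7 fibroblast markers was 54.5 to 63.9 and 57.2 to 65.4, with LUM and PDGFRA at 0. The RB1 protein status is taken from the name of the line and was not measured.

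A gene was called where its adjusted p in edgeR's quasi-likelihood test with Benjamini-Hochberg adjustment was under 0.05. Of the 15361 genes, 58.1% were called, 28.8% (4431) higher and 29.2% (4493) lower with palbociclib, and the CPM of the groups did not overlap for 62.7%. Without both libraries numbered 3 the counts were 4656 and 4687. The median log2 fold change over all genes was -0.01, and the median size of a change, up or down, was 0.38. Changes of at least 2-fold were called for 6.00% (922) in the higher and 7.38% (1133) in the lower direction. Given this breadth, each gene group is set against 28.8% higher, 29.2% lower and a median of -0.01, and no group was tested as a set. Wherever the values of all 6 libraries are given for a gene, the groups did not overlap. In bulk RNA, fewer cells that express a gene and less RNA of it per cell cannot be told apart.

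The balance of directions differed between abundance classes, which follow the horizontal axis of the plot of fold change against mean CPM. Among the 2457 genes with a mean of 100 CPM or more, 44.2% were called higher and 26.9% lower. Among the 3121 genes with 5 to 20 CPM the order was the other way, 20.6% higher and 39.0% lower. The other classes were closer to balance, with 34.6% higher and 30.8% lower at 20 to 100 CPM, 19.3% and 24.2% at 1 to 5 CPM, and 17.1% and 15.6% under 1 CPM. Gene groups were set against all genes and not against their own abundance class, whose shares can differ from those over all genes. Of 1042 genes that the table marks as transcription factors, 359 were called higher and 288 lower. Zinc-finger factors of the C2H2 family were called higher in 167 and lower in 91 of 460, whereas homeobox factors were called higher in 14 and lower in 35 of 81. Long noncoding genes were called higher in 391 and lower in 371 of 1860.

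**Figure D1:**
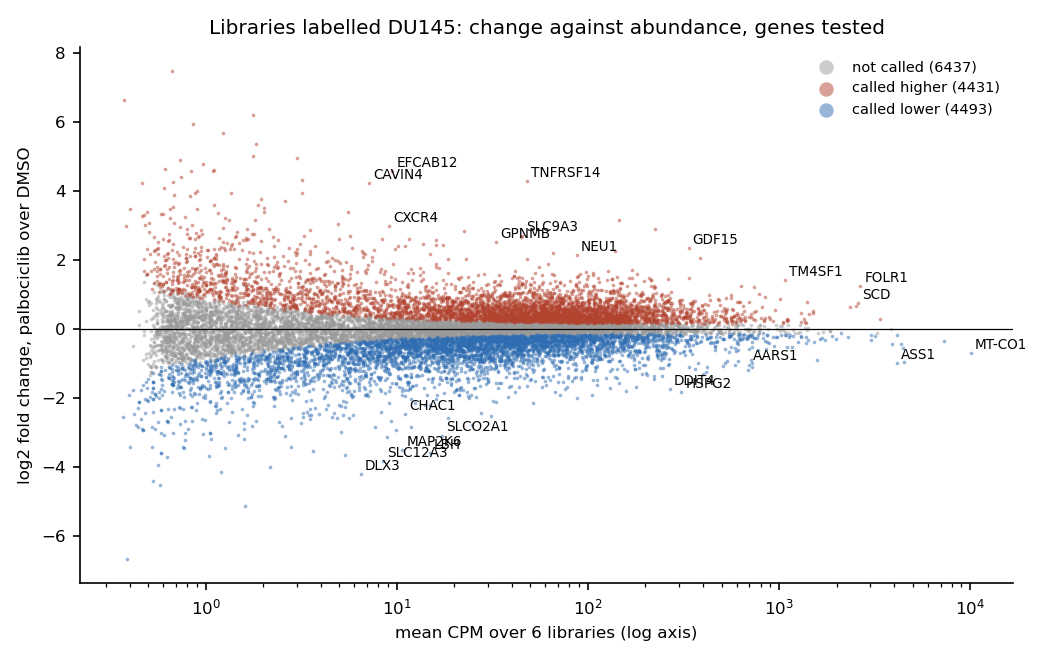
Log2 fold change of palbociclib over DMSO (vertical axis) against mean CPM over the 6 libraries (horizontal log axis) for the 15361 genes tested, coloured by call, with selected genes named. The 4431 called higher and 4493 called lower spread over the whole range of abundance.

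The drug targets themselves and their partners were mostly higher with palbociclib. Of the D-type cyclins, CDK4, CDK6 and their partners, 10 of 17 tested members were called higher and 2 lower, with a median log2 fold change of 0.23. CDK6 was at 504, 479 and 460 CPM with palbociclib and 323, 315 and 280 CPM with DMSO (log2 fold change 0.68, SE 0.06, adjusted p = 8.52e-08). CDK4 was at 276, 283 and 296 CPM with palbociclib and 195, 199 and 212 CPM with DMSO (log2 fold change 0.52, SE 0.06, adjusted p = 2.36e-06). Both kinases were higher in all 3 palbociclib libraries than in any DMSO library. CDC25A, the phosphatase that activates CDK2 in G1, rose by 0.89 on the log2 scale and CDK7 (0.60) and CCNH (0.60), subunits of the CDK-activating kinase, rose too. The E-type cyclins, which partner CDK2, fell (CCNE1 -0.41, CCNE2 -0.45), while CDK2 rose by 0.41. CCND1 was called higher by only 0.18 (adjusted p = 0.0314), a call that was lost without palbociclib replicate 1 or 2 (0.0647 and 0.0506), without DMSO replicate 1 or 2 (0.127 and 0.139), with library totals in place of TMM (trimmed mean of M-values) scaling (0.052) and with no filter on low counts (0.117). CCND3 had a log2 fold change of -0.02, and CCND2 had 0 to 2 counts.

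The 8 CDK inhibitor genes went both ways. CDKN1A (p21, at chr6:36676460-36687339) was at 483, 487 and 515 CPM with palbociclib and 181, 176 and 189 CPM with DMSO (log2 fold change 1.47, SE 0.06, adjusted p = 7.5e-12), and no library of one group reached the range of the other. CDKN2D, the INK4 inhibitor p19, rose as well (19.9 ± 2.32 CPM with palbociclib against 7.43 ± 1.44 CPM with DMSO, log2 fold change 1.44). The other INK4 member with a large change, CDKN2C (p18), was at 60.1, 56.9 and 66.7 CPM with palbociclib and 129, 133 and 142 CPM with DMSO and fell (log2 fold change -1.11, SE 0.08, adjusted p = 1.8e-09). CDKN1C (p57, -1.43) and CDKN1B (p27, -0.64) fell. CDKN2B fell slightly (-0.23, adjusted p = 0.0143), and its call was lost without palbociclib replicate 2 (0.0586) or DMSO replicate 1 (0.0725). For CDKN2A the log2 fold change was 0.13 (adjusted p = 0.204). Fitted with the replicate number as a block it was called (adjusted p = 0.0087), as it was without palbociclib replicate 1 (0.0295).

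Among the pocket proteins and E2F factors, 4 of 13 tested members were called higher and 6 lower, with a median log2 fold change of -0.17. RB1 messenger RNA had a log2 fold change of 0.17 (adjusted p = 0.0694), which was called with the replicate block (0.00248), without palbociclib replicate 3 (0.0124) and without both libraries numbered 3 (0.0203). RBL1 (p107) was at 36.3, 37.7 and 35.3 CPM with palbociclib and 55.9, 58.1 and 57.1 CPM with DMSO and fell (log2 fold change -0.62, SE 0.08, adjusted p = 1.76e-06). RBL2 (p130) fell by 0.26 on the log2 scale (adjusted p = 0.00802), a call lost without palbociclib replicate 2 (0.0569). Of the activating E2F factors, E2F1 fell (-0.45) and E2F3 rose (0.83). The dimerization partners TFDP1 (-0.21) and TFDP2 (-0.93) fell, TFDP2 being at 47.9 ± 3.38 CPM with palbociclib against 93.2 ± 1.46 CPM with DMSO.

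DNA replication genes, the textbook targets of RB1 and E2F, were split by function. Of the origin licensing and helicase genes, 7 of 23 were called higher and 7 lower, both near the background. MCM2, a helicase subunit, rose (530 ± 33.5 CPM with palbociclib against 408 ± 22.1 CPM with DMSO, log2 fold change 0.40), MCM5 fell (-0.31), and the GINS subunits divided, with GINS3 at 0.62, GINS4 at 0.51, GINS1 at 0.48 and GINS2 at -0.51. The fork genes leaned lower, with 4 higher and 15 lower of 31. PRIM1, the catalytic primase subunit, was at 14.6, 12.3 and 13.2 CPM with palbociclib and 38.1, 38.8 and 33.7 CPM with DMSO (log2 fold change -1.44, SE 0.10, adjusted p = 1.54e-09). POLA1 (-0.46) and POLA2 (-1.10), the polymerase alpha subunits of the same complex, fell with it. LIG1, which seals Okazaki fragments, fell by 0.92 on the log2 scale. FEN1, the flap nuclease that acts just before it, was at 459, 470 and 449 CPM with palbociclib and 265, 270 and 274 CPM with DMSO and rose (log2 fold change 0.79, SE 0.06, adjusted p = 3.89e-09). PCNA, the sliding clamp at which both work, had a log2 fold change of -0.09 (adjusted p = 0.198), called only with the replicate block (0.0379).

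Of 18 motifs searched on both strands of promoter windows, 3 were picked for display after their counts were known. The first, an E2F-type element, TTTCCCGC or its reverse complement GCGGGAAA, was looked for in windows of 300 bases (250 before and 50 after the gene start, RefSeq, GRCh38.p14). Windows were given for 27305 genes, 10878 of them among those tested. The element was in the windows of 1.98% of all genes, 3.24% of those tested, 2.79% of those called higher and 3.6% of those called lower. In the licensing group 6 of 20 genes with a window held it, and in the fork group 5 of 27. Stretches of 5 such genes are given 5′ to 3′ with the element in capitals, since genes that hold it went in different directions. LIG1 (-0.92), CDT1 (-0.36) and GINS2 (-0.51) fell. The clamp loader gene RFC3 rose (0.25, adjusted p = 0.0176), a call lost without palbociclib replicate 1 (0.0525), palbociclib replicate 2 (0.0838) or DMSO replicate 3 (0.0923). PCNA (-0.09) was called only with the replicate block (adjusted p = 0.0379). A match of letters is a description, not a site or a cause.
LIG1, chr19:48170411-48170498, minus strand: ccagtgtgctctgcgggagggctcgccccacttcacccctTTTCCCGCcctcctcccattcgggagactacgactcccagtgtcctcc
CDT1, chr16:88803714-88803788, plus strand: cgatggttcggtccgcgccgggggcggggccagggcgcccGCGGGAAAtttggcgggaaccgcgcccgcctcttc
GINS2, chr16:85688955-85689025, minus strand: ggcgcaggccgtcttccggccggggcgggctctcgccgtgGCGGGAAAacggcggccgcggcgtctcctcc
RFC3, chr13:33818054-33818141, plus strand: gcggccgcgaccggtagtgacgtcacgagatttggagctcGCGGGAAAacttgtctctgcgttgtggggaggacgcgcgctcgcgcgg
PCNA, chr20:5126634-5126721, minus strand: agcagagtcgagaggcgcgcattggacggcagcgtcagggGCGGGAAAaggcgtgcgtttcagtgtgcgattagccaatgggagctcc

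In DNA repair the homologous recombination genes fell more often than they rose. Of the homologous recombination and Fanconi genes, 3 of 33 tested members were called higher and 14 lower, with a median log2 fold change of -0.18. EXO1, the exonuclease that resects DNA ends, was at 30.4, 26.7 and 28.9 CPM with palbociclib and 108, 108 and 99.3 CPM with DMSO (log2 fold change -1.85, SE 0.08, adjusted p = 5.35e-12). The highest palbociclib library was more than 3-fold below the lowest DMSO library. BRCA1 (-0.68), BRCA2 (-0.53), the helicase BRIP1 (-0.87) and FANCG (-0.89) fell, and FANCB (0.52) and XRCC2 (0.39) rose. In mismatch and excision repair, 7 of 28 were called higher and 10 lower, near the background. MUTYH, the glycosylase that removes adenine opposite oxidized guanine, was at 12.3, 11.2 and 11.9 CPM with palbociclib and 36.5, 35.8 and 34.1 CPM with DMSO (log2 fold change -1.56, SE 0.09, adjusted p = 3.08e-10), and the damage sensor XPC fell by 1.26.

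Mitotic genes leaned higher. Among mitotic kinases and checkpoint genes, 13 of 20 tested members were called higher and 1 lower, with a median log2 fold change of 0.28. The spindle factor TPX2 was at 805, 764 and 741 CPM with palbociclib and 473, 468 and 444 CPM with DMSO (log2 fold change 0.76, SE 0.06, adjusted p = 4.63e-09). AURKA, the kinase that TPX2 activates, rose by 0.70, and INCENP (0.66) and PLK1 (0.42) rose as well. WEE1, which restrains CDK1, was the only one of these that fell (85.2 ± 4.04 CPM with palbociclib against 134 ± 4.11 CPM with DMSO, log2 fold change -0.63). MKI67, the usual marker of cycling cells, rose (552 ± 21.2 CPM with palbociclib against 438 ± 6.48 CPM with DMSO, log2 fold change 0.36). Kinesins were called higher in 6 and lower in 2 of 13, with KIF18A at 0.59 and KIF15 at -0.61. In the kinetochore, 6 of 31 were called higher and 7 lower, fewer in each direction than the background. Of the genes for the anaphase-promoting complex, condensin and chromosome structure, 14 were called higher and 8 lower of 32. Among the complex's subunits CDC16 (-0.99) and ANAPC4 (-0.90) fell and CDC23 (0.52) rose, its ubiquitin-conjugating enzymes UBE2S (0.62) and UBE2C (0.52) rose, and the condensin subunit SMC4 (-0.61) fell.

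The largest rise of a protein-coding gene with at least 5 CPM was that of EFCAB12 (16.2, 17.2 and 20.9 CPM with palbociclib and 0.621, 0.867 and 0.793 CPM with DMSO, log2 fold change 4.58). TNFRSF14 (HVEM, at chr1:2555639-2565382), a receptor that engages BTLA and LIGHT on lymphocytes, was at 86.8, 86.9 and 101 CPM with palbociclib and 5.46, 4.83 and 4.03 CPM with DMSO (log2 fold change 4.28, SE 0.11, adjusted p = 2.17e-14). The palbociclib libraries lay more than 10-fold above every DMSO library. CXCR4, the receptor of the chemokine CXCL12, was at 15.5, 17 and 15.8 CPM with palbociclib and 2.42, 1.61 and 2.2 CPM with DMSO (log2 fold change 2.98, SE 0.16, adjusted p = 6.33e-11). Leukocyte markers were higher with palbociclib by the sums given above, and their part in these values was not tested. SLC9A3, an epithelial sodium-proton exchanger, was at 76, 71.1 and 87.9 CPM with palbociclib and 12.2, 11.3 and 13.1 CPM with DMSO (log2 fold change 2.70, SE 0.10, adjusted p = 2.06e-12). The transcript of CAVIN4, a caveolar coat protein of muscle, rose by 4.21 on the log2 scale. The YAP target ANKRD1 (2.61), the urocortin UCN2 (2.46) and the sphingosine phosphate exporter SPNS2 (2.43) rose as well. In the same range were CCDC17 (3.38), PLD6, a mitochondrial phospholipase D (2.58), and the zinc-finger gene ZNF554 (2.42).

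The deepest fall of a protein-coding gene with at least 5 CPM was that of DLX3 (at chr17:49990005-49995224), a homeobox factor of epidermis and placenta, at 0.604, 0.546 and 0.78 CPM with palbociclib and 12.8, 11.4 and 12.7 CPM with DMSO (log2 fold change -4.22, SE 0.20, adjusted p = 2.06e-11). MAP2K6 (MKK6, at chr17:69414698-69553861), the kinase that activates p38 MAP kinases, was at 1.93, 1.7 and 1.44 CPM with palbociclib and 18.8, 19.9 and 20.2 CPM with DMSO (log2 fold change -3.51, SE 0.15, adjusted p = 6.05e-12). Neither gene had a palbociclib library near the lowest DMSO library. MAP2K3, a paralog of MAP2K6, rose (0.56), and the p38 genes MAPK14 (-0.40) and MAPK11 (-0.40) fell. Further deep falls were those of the sodium-chloride cotransporter SLC12A3 (-3.83), LBH (-3.62), the Notch ubiquitin ligase DTX4 (-2.95), OLFML1 (-2.84), ODAD2 (-2.84), the phosphatase subunit PPP2R2B (-2.79) and the talin TLN2 (-2.67). BOLA2B also qualified (-3.67), but it has a near-identical copy, and without DMSO replicate 1 its log2 fold change was -0.20 (adjusted p = 0.718).

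In absolute amount, FOLR1, the folate receptor alpha at chr11:72189558-72196323, gained most, at 3659, 3780 and 3712 CPM with palbociclib and 1552, 1613 and 1629 CPM with DMSO (log2 fold change 1.24, SE 0.05, adjusted p = 4.66e-12). The lipid desaturase SCD (3240 ± 102 CPM with palbociclib against 1962 ± 45.1 CPM with DMSO), the ferritin heavy chain FTH1 (3101 ± 155 CPM with palbociclib against 1980 ± 30.2 CPM with DMSO), the surface protein TM4SF1 (1545 ± 112 CPM with palbociclib against 597 ± 17.9 CPM with DMSO) and the actin ACTG1 (2817 ± 119 CPM with palbociclib against 1869 ± 128 CPM with DMSO) followed. The largest loss was that of the cytochrome oxidase subunit MT-CO1 (7570 ± 113 CPM with palbociclib against 12507 ± 737 CPM with DMSO), with MT-RNR2, the large mitochondrial ribosomal RNA (2989 ± 382 CPM with palbociclib against 5991 ± 205 CPM with DMSO), next. ASS1 (at chr9:130444929-130501274), the enzyme that joins citrulline and aspartate to make arginine, was at 2652, 2734 and 2825 CPM with palbociclib and 5545, 5459 and 5554 CPM with DMSO (log2 fold change -0.99, SE 0.05, adjusted p = 3.97e-11). The elongation factor EEF1A1 (-0.35) and MT-CO2 (-0.57) completed the 5 largest losses. The plot of values by library shows these and other genes one by one.

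**Figure D2:**
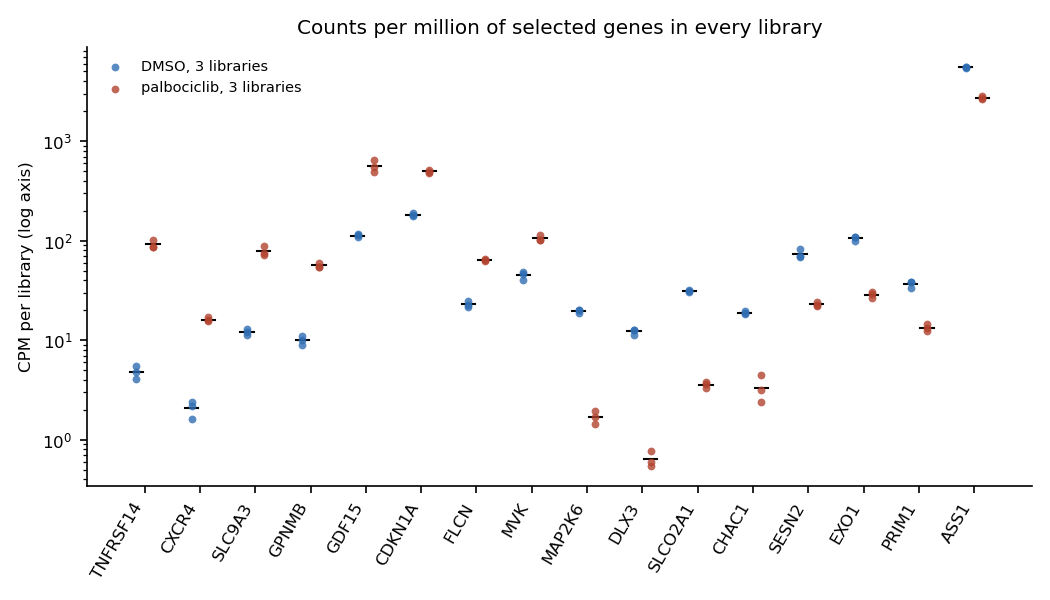
CPM (log axis) of 16 genes in each of the 3 DMSO (blue) and 3 palbociclib (red) libraries, with a bar at each group's mean. In each of the 16 genes the groups do not overlap, from TNFRSF14 (4.77 against 91.4 CPM on average) to ASS1 (5519 against 2737 CPM).

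The next ranking covers genes with at least 5 CPM that the table marks as transcription factors, a mark that was not checked. After ZNF554, the largest rises were those of ZNF143 (1.87), NOCT (1.77, marked without a named family) and ZNF556 (1.75). The small Maf protein MAFF (1.66), KLF6 (1.53), ZBTB43 (1.52) and the clock repressor NR1D1 (1.48) came next. ZNF143, an activator bound at many promoters, was at 97.8, 103 and 91 CPM with palbociclib and 27.7, 29.4 and 24.3 CPM with DMSO. Deep falls beside DLX3 were those of ATOH8 (-2.60), JDP2 (-1.98), CEBPA (-1.91), ZNF362 (-1.71), PRRX2 (-1.68) and DLX4 (-1.62). CEBPA, a differentiation factor, was at 7.73, 8.19 and 10.3 CPM with palbociclib and 33.6, 33.2 and 33.5 CPM with DMSO (log2 fold change -1.91, SE 0.11, adjusted p = 2.18e-10).

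Genes of the proton pump that acidifies lysosomes were mostly higher. Of the V-ATPase genes, 15 of 21 tested members were called higher and 2 lower, with a median log2 fold change of 0.76. ATP6V1C1, a subunit of the soluble V1 sector, was at 161, 167 and 146 CPM with palbociclib and 55.7, 53.4 and 54.2 CPM with DMSO (log2 fold change 1.56, SE 0.07, adjusted p = 1.5e-11). In the V1 sector ATP6V1F (1.47), ATP6V1E1 (1.16), ATP6V1B2 (0.99), ATP6V1H (0.91) and ATP6V1A (0.69) rose. In the membrane V0 sector ATP6V0D1 (1.25), ATP6V0A1 (1.12), ATP6V0E1 (1.10) and ATP6V0B (0.99) rose. The exceptions were tissue-restricted or alternative isoforms: ATP6V0A4 fell (-1.48) and so did ATP6V0E2 (-0.44).

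Lysosomal membrane proteins were called higher in 20 and lower in 8 of 35 (median 0.53). GPNMB, a glycoprotein of stressed lysosomes and melanosomes, was at 54.6, 60 and 54.8 CPM with palbociclib and 10.9, 9.04 and 10 CPM with DMSO (log2 fold change 2.52, SE 0.10, adjusted p = 2.71e-12). The chloride exchanger CLCN7 (305 ± 21.3 CPM with palbociclib against 112 ± 5.51 CPM with DMSO) and its partner OSTM1 (62.2 ± 2.44 CPM with palbociclib against 22.9 ± 2.49 CPM with DMSO) rose by the same log2 fold change, 1.47. The cystine exporter CTNS (1.47), the calcium channel MCOLN1 (1.38) and the amino acid exporter SLC36A1 (1.26) rose too. The lipid transporter ABCA2 (-1.06), the nucleoside carrier SLC29A3 (-0.87) and the cation channel TPCN1 (-0.76) fell. Among hydrolases 23 of 45 were called higher and 7 lower. They included the sialidase NEU1 (2.13), the ceramidase ASAH1 (1.54) and the alpha-galactosidase GLA (1.01) on the higher side, and the cathepsin CTSZ (-0.62) and HGSNAT (-0.62) on the lower.

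The genes that sense nutrients at the lysosome surface moved in a divided way. FLCN (folliculin), which with FNIP1 or FNIP2 switches the Rag GTPases that keep TFEB and TFE3 out of the nucleus, was at 62.6, 64.8 and 64.6 CPM with palbociclib and 22.5, 24.5 and 21.8 CPM with DMSO (log2 fold change 1.50, SE 0.08, adjusted p = 7.35e-11). FNIP1 was at 104, 98.1 and 86.1 CPM with palbociclib and 34.7, 34.3 and 30.1 CPM with DMSO (log2 fold change 1.57, SE 0.09, adjusted p = 1.02e-10), and FNIP2 (1.40) and the Rag gene RRAGC (1.27) rose with them. In these 4 genes the groups did not overlap. TFEB itself, a factor that drives lysosomal genes, was at 14.2, 13.8 and 17.1 CPM with palbociclib and 28.8, 29.5 and 34.1 CPM with DMSO and fell (log2 fold change -1.01, SE 0.11, adjusted p = 4.94e-07), while TFE3, its relative, rose (0.53). The sestrins SESN2 (-1.65) and SESN3 (-1.74), which restrain mTORC1, fell, and so did DEPDC5 (-0.61) and NPRL3 (-0.30) of the GATOR1 complex. Of the TSC complex, which restrains RHEB, TSC1 rose (0.89) and TSC2 fell (-0.67). The plot of fold changes for lysosomal genes gives each tested member with its SE.

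**Figure D3:**
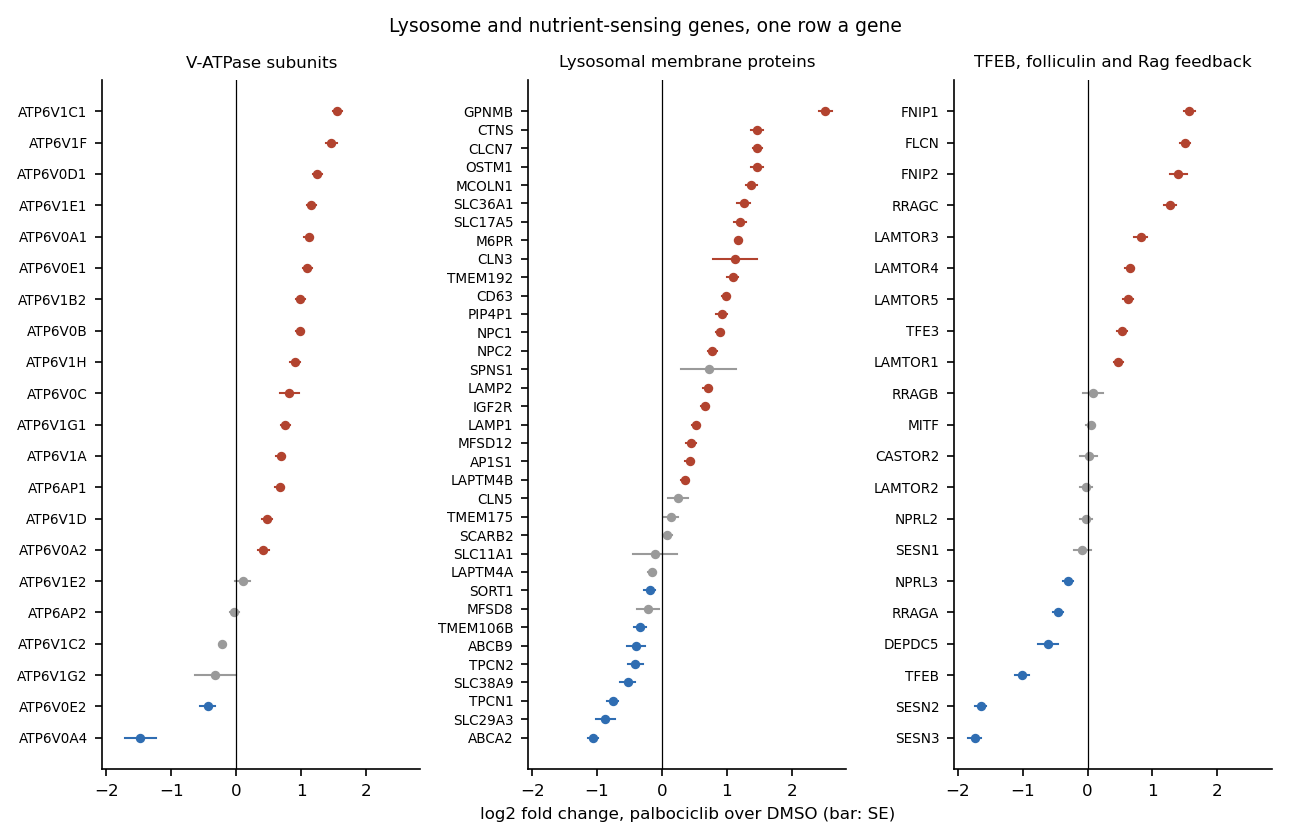
Log2 fold change of palbociclib over DMSO (horizontal axis, bars are SE) for tested genes of the V-ATPase (left), the lysosomal membrane (middle) and TFEB, folliculin and Rag regulation (right), red for called higher, blue for called lower and grey for not called. Most V-ATPase genes lie to the right of 0, whereas TFEB and the sestrins SESN2 and SESN3 lie to the left.

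The second motif, the palindrome TCACGTGA, is the core of the element that TFEB and TFE3 recognize and contains the general E-box CACGTG. It was in 1.18% of all RefSeq windows by gene, 2.21% of those tested, 3.65% (119 of 3262) of those called higher, 1.96% of those not called and 1.11% (37 of 3337) of those called lower. The shares were 5 of 31 lysosomal membrane genes with a window, all 5 called higher, 5 of 30 hydrolases, 3 of them called higher and 2 not called, and 2 of 15 V-ATPase genes, both called higher. In the TFEB, folliculin and Rag group RRAGB held it and was not called (0.08), and in the autophagy group ATG3 held it and was called higher (0.38). Stretches of 6 of the genes called higher before the gene start are given 5′ to 3′, with the palindrome in capitals. MCOLN1 has 2 copies.
MCOLN1, chr19:7522542-7522623, plus strand: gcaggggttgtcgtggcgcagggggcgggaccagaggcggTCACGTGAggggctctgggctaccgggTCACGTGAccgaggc
SLC36A1, chr5:151447554-151447602, plus strand: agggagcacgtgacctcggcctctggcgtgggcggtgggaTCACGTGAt
ATP6V0D1, chr16:67481170-67481257, minus strand: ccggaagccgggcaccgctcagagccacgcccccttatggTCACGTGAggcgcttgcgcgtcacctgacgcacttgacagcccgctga
ATP6V1G1, chr9:114587670-114587757, plus strand: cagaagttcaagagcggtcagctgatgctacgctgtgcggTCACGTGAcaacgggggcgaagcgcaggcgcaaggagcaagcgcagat
CTSA, chr20:45891269-45891334, plus strand: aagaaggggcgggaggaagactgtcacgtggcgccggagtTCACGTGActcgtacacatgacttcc
SCPEP1, chr17:56978063-56978130, plus strand: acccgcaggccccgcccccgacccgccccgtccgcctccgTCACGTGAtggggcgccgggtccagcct

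Autophagy genes were called higher in 20 and lower in 12 of 46. SQSTM1 (p62), the cargo receptor, was at 993, 1016 and 1095 CPM with palbociclib and 448, 438 and 476 CPM with DMSO (log2 fold change 1.21, SE 0.06, adjusted p = 5.19e-11). ATG2A, a lipid transfer protein of the growing membrane, rose by 1.50, and the ubiquitin-like proteins ATG12 (0.80), GABARAPL2 (0.70) and MAP1LC3B (0.65) rose as well. ULK1, the kinase that starts autophagy, was at 137, 138 and 165 CPM with palbociclib and 342, 307 and 346 CPM with DMSO and fell (log2 fold change -1.15, SE 0.08, adjusted p = 1.72e-09), and ULK2 fell by 1.13.

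Genes of sterol synthesis and uptake were mostly higher. Of the genes for cholesterol synthesis, uptake and export, 26 of 35 tested members were called higher and 7 lower, with a median log2 fold change of 0.52. MVK, the mevalonate kinase, was at 101, 101 and 115 CPM with palbociclib and 40.3, 45.8 and 48.1 CPM with DMSO (log2 fold change 1.26, SE 0.08, adjusted p = 1.17e-09). HMGCS1 (0.97), LSS (0.87), MSMO1 (0.86), DHCR7 (0.81) and SC5D (1.04), enzymes from the mevalonate steps to the last ring reactions, rose as well. Among the 7 that fell were the sterol sensor NR1H3 (-1.27), the exporters ABCA1 (-1.07) and ABCG1 (-0.31), the esterifying enzyme SOAT1 (-0.29) and the reductase TM7SF2 (-0.66). Fatty acid synthesis and activation genes were called higher in 19 and lower in 7 of 32, led by ELOVL7 (1.29) and ACSL1 (1.21). Oxidation and peroxisome genes leaned the other way, 8 higher and 17 lower of 41. Catalase (CAT, -1.05), the carnitine palmitoyltransferase CPT2 (-0.93) and the acyl-CoA dehydrogenase ACADM (-0.89) fell, and PPARGC1A, a coactivator of mitochondrial genes, rose (1.11).

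Genes that build ribosomes and genes that form them parted. Of the ribosome biogenesis factors, 57 of 72 tested members were called higher and 4 lower, with a median log2 fold change of 0.43. SURF6 (163 ± 9.98 CPM with palbociclib against 64.7 ± 3.38 CPM with DMSO), the nucleolar factors NOP16 (1.26) and WDR43 (1.09) and the helicase DDX21 (870 ± 85.1 CPM with palbociclib against 518 ± 29.1 CPM with DMSO) rose. UTP14A was the deepest of the 4 that fell (-0.60). Of the cytosolic ribosomal proteins, none was called higher and 45 of 77 were called lower, with a median of -0.17. Individual falls were small, the largest being RPS12 (-0.63) and RPL4 (-0.52). Of the RNA polymerase I and III subunits and factors, 16 were called higher and 7 lower of 35. RRN3, the factor that recruits polymerase I, rose (0.92), and so did the polymerase III factor BRF2 (1.46), while the second largest polymerase III subunit POLR3B fell (-1.47). MYC (0.47), which drives many of these genes, and its partner MAX (0.65) rose.

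Mitochondrial genes split by genome. Of the mitochondrially encoded messages, 0 were called higher and 10 of 13 lower (median -0.43). Of the nuclear genes for the mitochondrial ribosome and protein import, 46 of 96 tested members were called higher and 12 lower, with a median log2 fold change of 0.20. Nuclear genes of the respiratory chain stood below the background in both directions, 21 higher and 10 lower of 77.

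Most cytosolic chaperone genes rose. Of the heat shock and TRiC chaperonin genes, 25 of 37 tested members were called higher and 1 lower, with a median log2 fold change of 0.43. HSPB8, a small heat shock protein that hands clients to autophagy, was at 160, 153 and 165 CPM with palbociclib and 53.3, 53.4 and 53.5 CPM with DMSO (log2 fold change 1.60, SE 0.07, adjusted p = 6.23e-12). HSPH1 (1.33), DNAJA1 (1.19), HSPA8 (1103 ± 87.8 CPM with palbociclib against 596 ± 26.2 CPM with DMSO) and HSP90AA1 (1745 ± 162 CPM with palbociclib against 1043 ± 71.6 CPM with DMSO) rose, and HSPA2, a testis-enriched member, fell (-1.53). The endoplasmic reticulum chaperones were less uniform, 14 higher and 7 lower of 34. CALR rose (0.56), and HSPA5, the main chaperone of that compartment, fell (-0.27), as did HERPUD1 (-0.70) and the stress sensor ERN1 (-0.80). Proteasome genes were called higher in 22 and lower in 4 of 45, and nonsense-mediated decay factors in 11 and 2 of 18.

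Most stress and amino acid genes under the transcription factor ATF4 fell. ATF4 is made when amino acids run short or the endoplasmic reticulum is stressed, and it raises genes for amino acid synthesis, transport and transfer RNA charging. Of the ATF4 stress factors and brakes, 6 of 26 tested members were called higher and 17 lower, with a median log2 fold change of -0.65. CHAC1, which degrades glutathione, was at 2.41, 3.15 and 4.44 CPM with palbociclib and 19.6, 18.3 and 18.9 CPM with DMSO (log2 fold change -2.48, SE 0.16, adjusted p = 7.48e-10). TRIB3, a brake on ATF4, was at 103, 113 and 131 CPM with palbociclib and 283, 283 and 302 CPM with DMSO (log2 fold change -1.30, SE 0.08, adjusted p = 4.35e-10). DDIT4 (-1.75), JDP2 (-1.98) and ADM2 (-1.84) fell further, and ATF4 itself (-0.35) and DDIT3 (CHOP, -0.50) fell less. GDF15 and PPP1R15A were among the 6 that rose. GDF15, a secreted stress cytokine, was at 494, 544 and 642 CPM with palbociclib and 113, 108 and 116 CPM with DMSO (log2 fold change 2.34, SE 0.09, adjusted p = 1.6e-12), and PPP1R15A, which restores translation, rose by 1.27.

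Enzymes of serine, glycine, proline and one-carbon metabolism were called lower in 21 and higher in 2 of 32 (median -0.44). PHGDH, the first enzyme of serine synthesis, was at 674 ± 28.5 CPM with palbociclib against 1041 ± 49.3 CPM with DMSO. PSAT1 (-1.14), PSPH (-0.50), SHMT2 (-0.40), MTHFD2 (-0.74), ASNS (-1.34), PCK2 (-1.43) and GPT2 (-1.53) fell as well, so that the 3 enzymes of serine synthesis proper, PHGDH, PSAT1 and PSPH, were all lower. Of the aminoacyl-tRNA synthetases, 7 were called higher and 20 lower of 38. Cytosolic AARS1 (450 ± 11.2 CPM with palbociclib against 939 ± 27.3 CPM with DMSO) and IARS1 (249 ± 20.1 CPM with palbociclib against 507 ± 15 CPM with DMSO) fell most, and XPOT, which exports transfer RNA from the nucleus, fell by 1.32. Of the amino acid transporters, 8 were called higher and 10 lower of 26, near the background. The cystine importer SLC7A11 (-1.50), the glycine transporter SLC6A9 (-1.24) and SLC1A4 (-0.94) fell. Glutamine transporters went both ways, with SLC1A5 (-0.62) lower and SLC38A1 (1294 ± 89.8 CPM with palbociclib against 722 ± 46.4 CPM with DMSO) and SLC38A7 (1.16) higher.

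The third motif, TTGCATCA, read TGATGCAA on the other strand, is of the type that ATF4 binds with C/EBP partners. It was in 1.08% of all RefSeq windows by gene, 0.68% of those tested, 0.37% (12 of 3262) of those called higher, 0.49% of those not called and 1.23% (41 of 3337) of those called lower. Of the synthetase genes with a window, 6 of 30 held it and 5 of these fell, and of the ATF4 stress genes 4 of 23 did and all 4 fell. Of the amino acid genes that held it, GOT1 (0.04) and the synthetase NARS1 (0.06) were not called. The stretches of 6 genes, all of them called lower, are given, with the element in capitals.
CHAC1, chr15:40953222-40953309, plus strand: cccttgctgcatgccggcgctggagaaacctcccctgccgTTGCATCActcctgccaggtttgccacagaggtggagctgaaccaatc
JDP2, chr14:75427966-75428021, plus strand: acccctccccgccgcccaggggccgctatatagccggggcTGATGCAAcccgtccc
CEBPG, chr19:33374031-33374112, plus strand: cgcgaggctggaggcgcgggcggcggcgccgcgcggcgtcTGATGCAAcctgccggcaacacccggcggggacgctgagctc
AARS1, chr16:70289646-70289733, minus strand: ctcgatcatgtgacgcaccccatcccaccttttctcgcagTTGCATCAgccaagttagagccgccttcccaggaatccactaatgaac
IARS1, chr9:92293698-92293750, minus strand: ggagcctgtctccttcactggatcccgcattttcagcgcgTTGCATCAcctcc
SLC1A5, chr19:46784864-46784951, minus strand: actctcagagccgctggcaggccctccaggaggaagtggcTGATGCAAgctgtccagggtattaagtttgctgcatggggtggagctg

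Immediate early genes and brakes of the ERK pathway were mostly higher, and receptor tyrosine kinases mostly lower. Of the AP-1, EGR and immediate early genes, 25 of 35 tested members were called higher and 6 lower, with a median log2 fold change of 0.48. JUN (63 ± 7.4 CPM with palbociclib against 24.6 ± 1.77 CPM with DMSO), FOSL1 (1.37), KLF6 (1.53) and IER3 (1.33) rose, while the differentiation inhibitors ID1 (134 ± 7.23 CPM with palbociclib against 352 ± 22.5 CPM with DMSO) and ID3 (-0.56), KLF4 (-1.06) and the YAP target CCN2 (-0.89) fell. Of the ERK feedback genes, 14 were called higher and 1 lower of 24. The MAP kinase phosphatase DUSP1 was at 303, 301 and 324 CPM with palbociclib and 116, 110 and 127 CPM with DMSO (log2 fold change 1.41, SE 0.07, adjusted p = 4.25e-11), and DUSP4 (1.50) and DUSP5 (1.44) rose. DUSP6, the phosphatase most specific for ERK, was not called (-0.21). Of the receptor tyrosine kinases and EGF ligands, 4 of 29 tested members were called higher and 16 lower, with a median log2 fold change of -0.34. EGFR (296 ± 16.8 CPM with palbociclib against 416 ± 5.67 CPM with DMSO), MET (186 ± 16.6 CPM with palbociclib against 312 ± 2.52 CPM with DMSO), AXL (-1.06), FGFR3 (-1.49) and the collagen receptor DDR2 (-1.92) fell.

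Clock genes leaned higher, 10 against 5 lower of 20. The repressor arm rose, with PER3 at 59.1, 62.4 and 62.3 CPM with palbociclib and 21.4, 23.9 and 19 CPM with DMSO (log2 fold change 1.54, SE 0.09, adjusted p = 1.84e-10), NR1D1 at 1.48, CRY1 at 1.35 and PER1 at 1.11 on the log2 scale, and BMAL1, the activator, fell (-0.60).

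The pathway that the title of the series names, with STING as its adaptor, senses cytosolic DNA and induces interferon. CGAS, the sensor, rose (37.7, 41 and 37.6 CPM with palbociclib and 22.5, 27.6 and 26.7 CPM with DMSO, log2 fold change 0.62). STING1, the adaptor, had 2 to 8 counts per library and IFNB1, the interferon it induces, had 0 in each, too few to be tested, and near-0 counts in this table carry the doubt given above for EEF1G and TOMM6. TBK1 had a log2 fold change of 0.22 (adjusted p = 0.0592), called with the replicate block (0.0172), without palbociclib replicate 2 (0.0269) and without DMSO replicate 2 (0.0328). IRF3 rose by 0.31 (adjusted p = 0.00843), but was not called when DMSO replicate 1 was left out (0.0723). Over the whole pathway list 16 were called higher and 7 lower of 33. With a change of at least 2-fold, 0 were called higher and 5 lower, against 6.00% and 7.38% of all genes tested. Among members with at least 5 CPM the deepest fall was that of the kinase IKBKE (-1.51) and the largest rise that of INSIG1 (0.81). Of the interferon-stimulated genes, 7 of 40 tested members were called higher and 24 lower, with a median log2 fold change of -0.39. PARP9 (-1.23), OAS1 (-0.92) and IFITM3 (168 ± 8.52 CPM with palbociclib against 292 ± 7.27 CPM with DMSO) fell, and ISG15 (30.8 ± 3.4 CPM with palbociclib against 13.8 ± 1.11 CPM with DMSO) and IFIT2 (0.88) rose.

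NF-kB genes leaned higher, 14 against 3 lower of 24 (median 0.29). RELB (1.21), NFKB2 (238 ± 11.3 CPM with palbociclib against 118 ± 6.11 CPM with DMSO), RELA (0.84) and ICAM1 (72.6 ± 7.18 CPM with palbociclib against 32.3 ± 0.773 CPM with DMSO), an adhesion molecule it controls, rose, and the feedback genes BCL3 (-0.69) and TNIP1 (-0.64) fell. In the TNF receptor family, TNFRSF14 was followed by the death receptor TNFRSF10A (1.28) and by TNFRSF12A (259 ± 24.4 CPM with palbociclib against 144 ± 10.9 CPM with DMSO). Ligands that lymphocytes read moved separately. TNFSF9 (4-1BB ligand) was at 191, 187 and 199 CPM with palbociclib and 59.2, 62.8 and 60.9 CPM with DMSO (log2 fold change 1.68, SE 0.07, adjusted p = 3.63e-12). MICA rose (63.6 ± 3.99 CPM with palbociclib against 26.5 ± 1.52 CPM with DMSO) and ULBP1 fell (4.77 ± 0.412 CPM with palbociclib against 15.8 ± 0.61 CPM with DMSO), although both are stress ligands of the NKG2D receptor on natural killer cells. HLA-E, the ligand of NKG2A, rose (183 ± 3.38 CPM with palbociclib against 85.6 ± 5.67 CPM with DMSO). Among cytokines, LIF (1.05) and CSF1 (1.17) rose, and the receptors IL6R (1.35) and IL4R (-1.44) went up and down respectively. CCL5 had 0 to 7 counts, below what can be compared.

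Called genes of the keratin list, the integrin and laminin list and the collagen list mostly fell, but not every epithelial or matrix group did. Tight junction genes and cadherins were called higher in 8 and lower in 8 of 22, and matrix proteases and their inhibitors in 4 and 13 of 31. The summed CPM of 7 epithelial markers ran from 2383 to 2498 in the palbociclib and from 3631 to 3985 in the DMSO libraries, that of 6 mesenchymal markers 516 to 551 and 746 to 766, and their part in these groups was not tested. Of the keratins and desmosome genes, 2 of 18 tested members were called higher and 12 lower, with a median log2 fold change of -0.53. PPL (periplakin) was at 33.4, 34.8 and 35.7 CPM with palbociclib and 139, 134 and 149 CPM with DMSO (log2 fold change -2.0, SE 0.08, adjusted p = 2.36e-12), KRT7 at 415 ± 25.1 CPM with palbociclib against 967 ± 83.2 CPM with DMSO, and PKP3 fell by 1.64. Of the integrins and laminins, 2 were called higher and 13 lower of 24. The 2 that rose were laminins, LAMA1 (0.95) and LAMB2 (0.46), while the laminin LAMB1 fell (-0.64). HSPG2 (perlecan), a basement membrane proteoglycan, was at 125, 125 and 151 CPM with palbociclib and 473, 438 and 536 CPM with DMSO (log2 fold change -1.83, SE 0.09, adjusted p = 2.58e-11), and ITGB4, the integrin of hemidesmosomes, fell by 1.42. Of the collagens and matrix glycoproteins, 3 were called higher and 22 lower of 35. COL5A1 (380 ± 35.8 CPM with palbociclib against 802 ± 51.6 CPM with DMSO), FBN2 (-1.17) and FBN1 (-1.41) fell, and COL7A1, the anchoring fibril collagen, rose (0.32). A list of growth factor genes and of genes for factors secreted in stress and senescence leaned lower too, 3 higher and 14 lower of 21. IGFBP3, which sequesters insulin-like growth factors, was at 112, 121 and 120 CPM with palbociclib and 311, 324 and 347 CPM with DMSO (log2 fold change -1.45, SE 0.07, adjusted p = 2.12e-11), and PDGFB (-1.55) and EDN1 (-1.74) fell. The plot of called shares sets 32 groups beside the background.

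**Figure D4:**
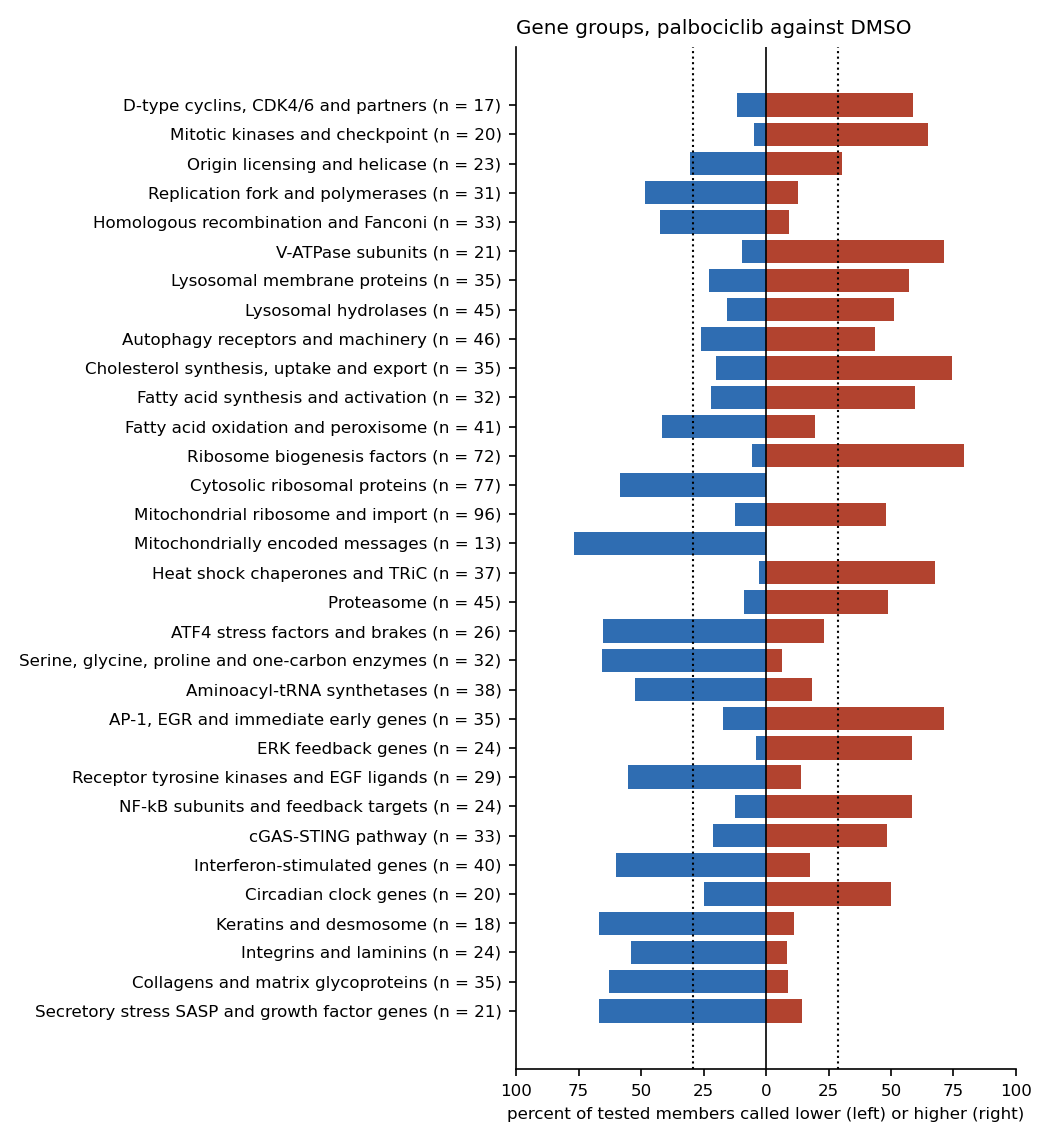
Percent of the tested members of 32 gene groups called higher (red, to the right) or lower (blue, to the left) with palbociclib, with n the number tested and dotted lines at the shares over all genes, 28.8% higher and 29.2% lower. Ribosome biogenesis factors, V-ATPase and sterol genes reach far past the line on the right, and mitochondrially encoded messages, keratins and ATF4 genes past the one on the left.

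Set against the libraries labelled C4-2, many of these responses differed by a joint fit with an interaction of line and treatment. Of 18139 genes in that fit, 33.4% were called, 18.4% (3337) with the change higher in DU145 and 15.0% (2727) with it lower. That order depended on the scaling. With library totals in place of TMM the counts were 2759 and 3291, and the median difference over all genes moved by -0.105 on the log2 scale. The lines were counted separately, and 1 DMSO library labelled C4-2 held only zeros, so 5 libraries of that line were used. Totals of those 5 ran from 2608851 to 3489659 counts, against 16108999 to 16674393 in DU145. This lower depth in C4-2 limits both the counts of differing genes and the C4-2 medians. For origin licensing 17 of 23 genes differed and 24 of 31 fork genes did, all with the change higher in DU145. The medians were -1.55 and -1.22 in C4-2 against -0.05 and -0.13 in DU145 over genes tested in both. Mitotic kinases (19 of 20) and kinesins (13 of 13) differed in that direction as well. Ribosome biogenesis factors did so in 61 of 72, with medians of -0.48 and 0.43. ATF4 genes went the other way, with 22 of 26 lower in DU145 and medians of 1.19 and -0.65, as did interferon-stimulated genes, with 27 of 40 lower and medians of 0.83 and -0.37. V-ATPase genes had positive medians in both, 0.27 and 0.87, and 11 of 21 had a change higher in DU145 and 1 lower. With library totals these counts were 10 and 1 for V-ATPase and 58 for ribosome biogenesis factors. The plot of medians by line gives these and the other groups compared.

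**Figure D5:**
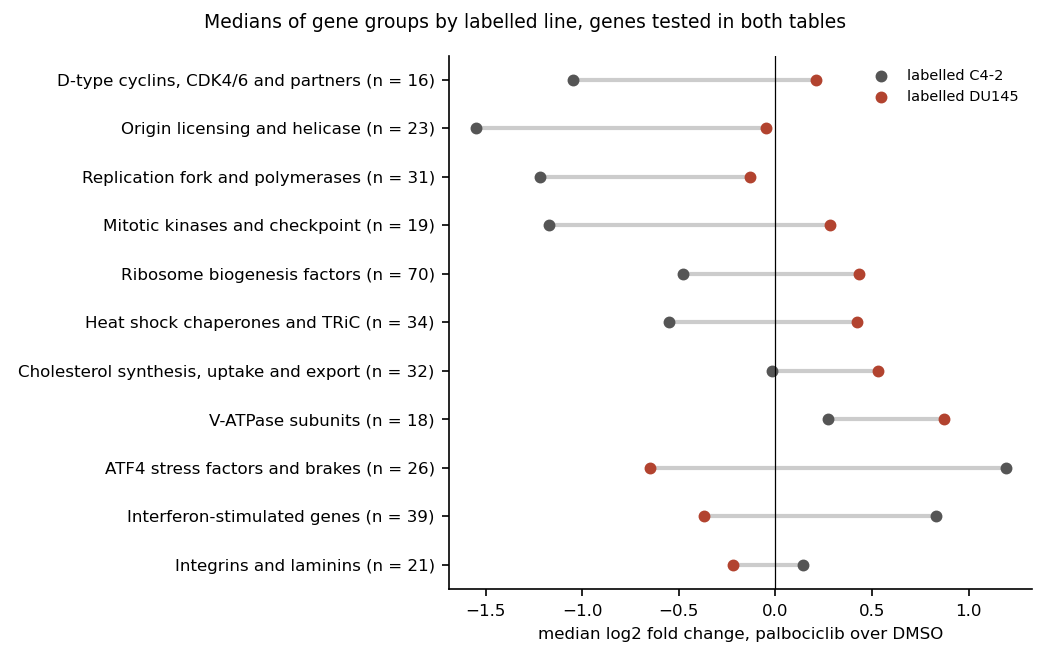
Median log2 fold change of palbociclib over DMSO in 11 gene groups for libraries labelled C4-2 (grey) and DU145 (red), over the n genes tested in both tables. Cell cycle and ribosome biogenesis medians are below 0 in C4-2, ATF4 and interferon-stimulated medians lie above 0 in C4-2 and below 0 in DU145, and V-ATPase medians are above 0 in both.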

How the data were processed

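The members of this comparison and the gene lists were chosen with earlier results of these data known. RNA was extracted with a column kit and made into libraries with a directional kit, per the labels' protocols. The authors deposited whole-number read counts per Ensembl gene for the 6 libraries labelled DU145, and a second table of counts for the libraries labelled C4-2. The genome build was hg38, per the submitters' processing notes. No source used here names the aligner, the counter or its strand setting for these libraries. Libraries were grouped by the column labels. Symbols were joined by gene ID for 56668 of 57167 genes, and coordinates are those of the deposited table (hg38). Promoter sequences are from RefSeq (GRCh38.p14). Genes were filtered with edgeR's filterByExpr, scaled by TMM and tested with edgeR 4.0.16 (quasi-likelihood F test, R 4.3.3) with Benjamini-Hochberg adjustment at 0.05, on the 3 palbociclib and 3 DMSO libraries with no covariate. A standard error is the size of the log2 fold change divided by the square root of F. CPM values are counts per 1000000 counts of the library, given as the value of each library or as mean ± SD over 3 libraries. The difference between lines was the interaction of line and treatment in a joint fit of 11 libraries. On simulated data with 200 changed genes among 15088, the fit recovered 99.5% of them, and 2.5% of its calls were false. Both values are for that setting only. The fit was not tested on data with a share of changed genes as large as the 58.1% called here. Both libraries numbered 3 deviated together (correlation 0.482 over 11065 genes). Those numbered 1 and 2 did not pair by number. Their correlations were 0.156 and 0.248 for the same number, 0.276 for palbociclib 1 with DMSO 2, and 0.108 for palbociclib 2 with DMSO 1. Different numbers ranged from -0.392 to 0.276. The labels give no meaning to the numbers, and a fit with the number as a block was run as an alternative. Counts of replicates 1 and 2 of a group differed beyond sampling noise (chi-square per degree of freedom 2.46 and 2.45), so no library was counted as a repeat of another. Genes were named by rule: the drug targets, RB1 and STING pathway genes, the 12 largest changes in each direction among protein-coding genes with a mean of at least 5 CPM, the 5 largest gains and losses in CPM, the 8 largest changes of transcription factors, and up to 4 called members of each of 78 lists per direction. Some genes that the rule names are not reported here. Other members are given by value, chosen after their values were seen. Alternatives were RLE scaling, library totals, no filter, a mean of at least 5 CPM, each library left out, both libraries numbered 3 left out, the block, DESeq2 1.42.0, and a fold of at least 2 in addition. Figures were drawn with matplotlib 3.10.9.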

Additional observations from a re-analysis of the deposited data

Results flagged for a closer look

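The change with palbociclib differed between the lines, by the interaction of line and treatment in edgeR's quasi-likelihood test with Benjamini-Hochberg adjustment, for 6064 of 18139 genes. Among 46 genes named as drug targets, STING pathway genes or largest changes and present in that fit, 34 differed, 23 with the change higher in DU145 and 11 with it lower. Each value is the log2 fold change in the libraries labelled DU145 minus that in those labelled C4-2, so a positive value can be a larger rise or a smaller fall in DU145.

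Among cell cycle genes, the difference was 2.62 for CCNE2, 2.33 for MKI67, 2.07 for CDKN2D, 1.77 for E2F1, 1.66 for CDK2, 1.36 for CDKN1A, 1.21 for CDK6, 1.13 for RBL1, 1.05 for CCND3, 0.94 for CDK4 and 0.63 for CDKN2C. It was -0.71 for CDKN1B, -0.91 for CCND1, -0.93 for RBL2 and -4.49 for CDKN1C, the last with 0 to 20 counts per library in C4-2. In the STING pathway, CGAS differed by 1.24 and IRF3 by 1.04.

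Among the genes with the largest rises in DU145, the differences were 8.28 for CXCR4, 4.54 for TNFRSF14, 3.73 for CAVIN4, 3.02 for ANKRD1, 2.94 for SPNS2, 2.79 for CCDC17, 2.23 for SLC9A3, 2.15 for UCN2, 2.11 for PLD6 and 1.83 for ZNF554. CXCR4 had 0 to 2 counts per library in C4-2 and TNFRSF14 0 to 5, so the sizes of both depend on the prior count of the fit. CAVIN4, with 2 to 8, and CCDC17, with 0 to 8, were also too low in C4-2 for a fit of that line alone. Among the genes with the largest falls, they were -3.71 for LBH, -3.34 for MAP2K6, -3.23 for DTX4, -2.07 for TLN2, -1.99 for PPP2R2B, -1.36 for SLCO2A1 and -1.32 for ATOH8.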

How the results depend on the processing

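The alternative fits were followed for 298 tested genes, which do not include every gene named in the report. Of these 298, 292 were called, and 286 of the 292 kept their direction and their side of the threshold. This holds for those of the 13 other fits in which a gene was tested. Genes with a mean under 5 CPM were not in the fit with that filter. The 6 that did not (BOLA2B, CCND1, CDKN2B, IRF3, RBL2 and RFC3) are given with their values in the report, and the cause was not tested. CCND3, not called, changed sign without palbociclib replicate 1 (log2 fold change 0.03), without palbociclib replicate 2 (0.03) and without DMSO replicate 3 (0.06), and lay between -0.11 and 0.06 over the fits that left out 1 library. With a fold of at least 2 required in addition, which by construction leaves fewer genes, 2055 genes were called, 922 higher and 1133 lower, and 23 of 78 lists had more members called higher than lower, against 41. In the other 13 fits the counts of called genes stayed within 1.5 times of the reported ones. Library totals called 4221 higher and 4735 lower, the replicate block 4957 and 4996, and the filter at a mean of 5 CPM 3585 and 3680. DESeq2 called 4279 higher and 4139 lower. Leaving out 1 library gave 4025 to 4520 higher and 4087 to 4534 lower. Library totals moved the median of all genes by -0.024 and RLE scaling by 0.009 on the log2 scale. With the replicate block, the calls of CDKN2A, PCNA, RB1 and TBK1 changed and those of no other gene among the 298 did. In that setting 6037 genes differed between the lines. Leaving out 1 library gave 4743 to 6249 genes that differed. A gene with 0 counts in a library can hold up to 0.18 to 0.186 CPM, which limits comparisons of rare genes and covers counting error only.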

Other observations

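Iron and metal genes went both ways. TFRC, the transferrin receptor, was at 311, 304 and 286 CPM with palbociclib and 129, 136 and 120 CPM with DMSO (log2 fold change 1.25, SE 0.07, adjusted p = 6.39e-11), and FTH1, the ferritin heavy chain, rose by 0.67 on the log2 scale, while TFR2, the second transferrin receptor, fell (-0.51). The metal response factor MTF1 rose (1.03) and the hepcidin inducer BMP6 fell (-0.81). Over the iron and metal list 10 were called higher and 7 lower of 23. Glutathione and NRF2 genes leaned lower, 10 higher and 23 lower of 48. CTH (-1.28) and CBS (-1.09), which make cysteine from homocysteine, fell, and the manganese superoxide dismutase SOD2 (143 ± 12.2 CPM with palbociclib against 54 ± 1.53 CPM with DMSO) and the small Maf protein MAFG (379 ± 22.3 CPM with palbociclib against 142 ± 2.02 CPM with DMSO) rose.

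BMP genes and ABC transporters leaned lower, and the Notch pathway, with 8 called higher and 8 lower of 27, was at the background of 28.8% and 29.2%. Its receptors parted, with NOTCH3 falling (24.2 ± 3.15 CPM with palbociclib against 63.6 ± 4.9 CPM with DMSO) and NOTCH2 rising (0.45), and the glycosyltransferase LFNG fell by 2.03. Of the BMP and TGF-beta genes 10 were called higher and 18 lower of 40. BMP2 rose (332 ± 11.5 CPM with palbociclib against 177 ± 4.1 CPM with DMSO), while ID1, its usual target, fell (-1.37) and so did SMAD9 (-2.20). SLCO2A1, the prostaglandin importer, was at 3.62, 3.28 and 3.78 CPM with palbociclib and 30.6, 31.6 and 31.2 CPM with DMSO (log2 fold change -3.10, SE 0.12, adjusted p = 2.06e-12), and the cyclooxygenase PTGS1 was at 82.5, 82.1 and 82.3 CPM with palbociclib and 154, 148 and 149 CPM with DMSO (log2 fold change -0.84, SE 0.06, adjusted p = 5.52e-09). Of the ABC and other drug transporters 7 were called higher and 19 lower of 36, and ABCC3 (-0.97) and ABCC4 (-0.87) fell. The splicing factor SRSF3 fell by 1.31, and HNRNPF rose (1036 ± 31.4 CPM with palbociclib against 526 ± 4.97 CPM with DMSO).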
